A study of Homo sapiens with 2 samples.

Results

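The genes that encode the proteasome and the factors that assemble, activate or inhibit it were examined for the acetylation of histone H3 at lysine 27 (H3K27ac), which marks promoters and enhancers in use. Members were the protein-coding genes whose symbol is PSMA, PSMB, PSMC, PSMD, PSME, PSMF or PSMG followed by digits alone, which gave 48 of the 20037 protein-coding genes of the autosomes and sex chromosomes. Both libraries were made from F36P cells, a leukaemia line of human erythroid origin. In 1 of them the cells had been transduced with a retroviral plasmid, MSCV-PIG-AM-ERG, that carries the ETS-family transcription factor ERG (labelled ERG overexpression), and in the other with the empty MSCV-PIG plasmid (labelled WT). Transduced cells of both cultures were kept in 1 µg/ml puromycin over 4 days to select them. Below they are ERG cells and vector cells. What AM stands for was not established here, and the sources used here do not say whether the cultures were pools or clones. With 1 library a group there is no replicate check of any difference, no p-value is given, and every interval below covers counting error only. A gene without a called peak is not a gene without signal.

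The proteasome is the protease that degrades ubiquitin-tagged proteins. Its 20S core is a stack of rings made of alpha subunits (PSMA genes), which gate the channel, and beta subunits (PSMB genes), some of which cut the substrate. The 19S particle caps the core. Its ATPases (PSMC genes) unfold substrates, and its other subunits (PSMD genes) bind and remove ubiquitin. Most of these genes are transcribed in every cell, and when proteasome activity falls the factor NFE2L1 raises them together through antioxidant response elements in their promoters. Interferon induces a further set of subunits (PSMB8, PSMB9 and PSMB10) and an activator (PSME1 with PSME2), which favour peptides for antigen presentation. Maturing erythroid cells clear most of their proteins, and the proteasome takes part in this.

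The ERG-cell list held 19671 peaks and the vector-cell list 9161. The lowest local background of each list, taken here as its depth, was 2.31 fragments in ERG cells and 1.60 in vector cells. Their ratio of 1.44 is the depth ratio used below, and read counts were not used. The number of fragments at a peak's summit was recovered from the deposited fold and p-value, so values below are fragments, not scaled for depth unless so stated. The labelled line was checked by marker genes: of 15 erythroid genes, 9 had a peak within 1 kb of a gene end in both cultures, GATA1, KLF1, TAL1 and EPOR among them, and 1 in ERG cells alone. HBG1, SLC4A1, ANK1 and EPB42 were among those with no end peak in either. None of 7 marker genes of other cell types had one in either culture. Over all protein-coding genes 30.2% had an end peak in both cultures, 15.6% in ERG cells alone and 53.8% in neither.

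Of the 31 members that encode constitutive subunits of the 26S proteasome, 30 had a peak at an end or a start in ERG cells and 26 in vector cells. A peak counted for a gene when it lay within 1 kb of either end of the gene record (an end peak). Of the 48 genes, 32 had one in both cultures, against 30.2% of all protein-coding genes. A further 8 (15.6% of all genes) had it in ERG cells alone, 0 (0.354%) only in vector cells, and 8 (53.8%) had none. ERG cells therefore had an end peak at 40 members, 83.3% (95% exact binomial interval 69.8 to 92.5), against 45.8% of all genes. Vector cells had one at 32, 66.7% (51.6 to 79.6), against 30.5%. For comparison with other broadly expressed genes, ERG and vector cells had such a peak at 100% and 83.1% of 77 cytosolic ribosomal protein genes, at 92.2% and 53.2% of 77 mitochondrial ribosomal protein genes, and at 92.6% and 66.7% of 54 splicing factor genes. Of the 16 proteasome genes without a vector-cell end peak, ERG cells had one at 8, 50% (24.7 to 75.3), against 22.5% of all such genes. This share was 100% in the cytosolic ribosomal, 83.3% (67.2 to 93.6) in the mitochondrial ribosomal and 77.8% (52.4 to 93.6) in the splicing factor genes. The proteasome value was lower, but its interval overlapped that of each of these sets. The overlap was narrow for the cytosolic ribosomal genes (75.29 to 100, against a proteasome upper limit of 75.35). Its 16 genes include the 5 immune or tissue-restricted subunits. They also include PSMA6, PSMF1, PSMG2 and PSMG4, which had start peaks inside the gene record in both cultures. Among the constitutive 26S genes the share was 66.7% of 6 (22.3 to 95.7).

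Of the 8 genes without an end peak, 4 had peaks in both cultures at a transcription start inside the gene record. These were PSMA6, PSMF1, PSMG2 and PSMG4. In PSMG2, the partner of PSMG1 in alpha-ring assembly, a start at 12703042 on chromosome 18 lay under peaks at 12702058 to 12703448 in ERG cells, with 179 fragments at the summit, and at 12702261 to 12703268 in vector cells, with 82. In PSMA6, an alpha subunit, the ERG-cell peak at 35292354 to 35293122 on chromosome 14 had 62 fragments and the vector-cell peak at 35292459 to 35292833 had 27. The PSMG2 start peaks thus belonged with the strongest of the whole family, although the gene counts as having no peak by its ends. The values were 42 and 22 fragments at PSMF1, which encodes the inhibitor PI31, and 38 and 16 at PSMG4. Among all protein-coding genes with an annotated start and no end peak, 3.63% had such start peaks in both cultures. With ends and starts counted together, 36 members had a peak in both cultures (32.2% of all genes), 8 in ERG cells alone (16.1%), 0 only in vector cells (0.344%) and 4 in neither (51.4%). Starts were annotated for 42 members, of which 32 had a start peak in both cultures (33.1% of all genes with a start), 6 in ERG cells alone (16.1%), 0 only in vector cells (0.322%) and 4 in neither (50.4%). For PSMA7, PSMB1, PSMB6, PSMB7, PSMD4 and PSMG3 the gene ends were used.

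**Figure D1:**
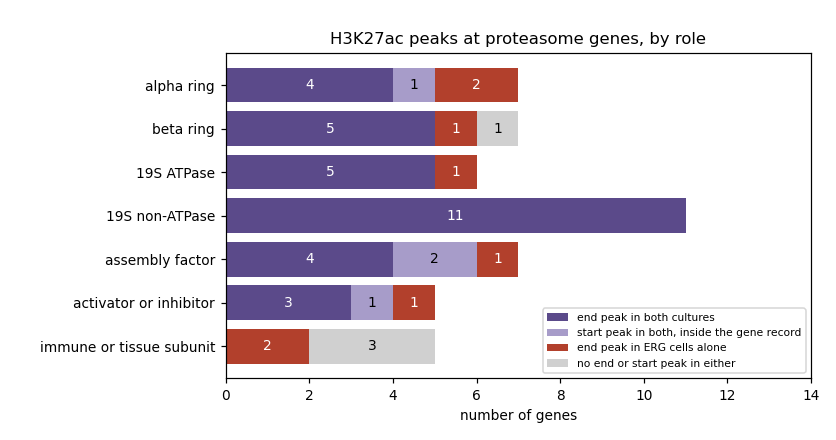
Number of proteasome genes in each class of H3K27ac peak, by role in the complex (horizontal axis, number of genes). All 11 non-ATPase subunits of the 19S particle among the members had an end peak in both cultures, and of the 5 immune or tissue subunits 0 did.

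The promoters below are shown because they span these classes. PSMD12, a lid subunit of the 19S particle, and PSMC6, an ATPase, had peaks in both cultures. PSMA5 (an alpha subunit), PSMB10, PSME2 and PSMA8 (the testis alpha subunit) had one in ERG cells alone. PSMB3, a non-catalytic beta subunit, and PSMB9 had none in either. Each sequence is the 250 bases before the annotated start, 5′ to 3′ on the gene's strand, from RefSeq (GRCh38.p14). Capitals mark every match, on either strand, to the antioxidant response element core, the ETS core CCGGAAG or the interferon-type element (GAAA and GAAA separated by any 2 bases). The antioxidant core was searched in the loose form TGANNNNGC, where N is any base. The windows lie at chr17:67366578-67366827, minus strand (PSMD12), chr14:52706950-52707199, plus strand (PSMC6), chr1:109426449-109426698, minus strand (PSMA5), chr16:67936851-67937100, minus strand (PSMB10), chr14:24146611-24146860, minus strand (PSME2), chr18:26133619-26133868, plus strand (PSMA8), chr17:38752491-38752740, plus strand (PSMB3) and chr6:32853942-32854191, plus strand (PSMB9), and none of them overlaps another gene record.
PSMD12: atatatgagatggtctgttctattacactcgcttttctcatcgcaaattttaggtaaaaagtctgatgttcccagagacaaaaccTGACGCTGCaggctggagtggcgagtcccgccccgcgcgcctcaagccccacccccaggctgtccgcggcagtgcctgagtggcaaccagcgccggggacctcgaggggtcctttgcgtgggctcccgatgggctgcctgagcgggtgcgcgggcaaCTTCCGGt
PSMC6: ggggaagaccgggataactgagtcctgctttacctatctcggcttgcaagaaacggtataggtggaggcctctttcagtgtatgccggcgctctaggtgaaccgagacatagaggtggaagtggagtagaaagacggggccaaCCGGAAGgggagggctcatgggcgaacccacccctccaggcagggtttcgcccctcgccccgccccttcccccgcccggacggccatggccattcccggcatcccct
PSMA5: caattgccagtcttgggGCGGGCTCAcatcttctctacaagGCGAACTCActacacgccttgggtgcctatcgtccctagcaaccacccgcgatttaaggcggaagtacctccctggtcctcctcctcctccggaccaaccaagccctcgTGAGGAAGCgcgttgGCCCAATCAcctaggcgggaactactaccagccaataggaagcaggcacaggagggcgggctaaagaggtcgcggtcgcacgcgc
PSMB10: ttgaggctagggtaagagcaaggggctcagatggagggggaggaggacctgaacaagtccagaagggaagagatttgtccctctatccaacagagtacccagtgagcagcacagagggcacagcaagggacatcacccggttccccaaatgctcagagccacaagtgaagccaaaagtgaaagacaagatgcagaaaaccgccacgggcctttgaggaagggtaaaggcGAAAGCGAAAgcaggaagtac
PSME2: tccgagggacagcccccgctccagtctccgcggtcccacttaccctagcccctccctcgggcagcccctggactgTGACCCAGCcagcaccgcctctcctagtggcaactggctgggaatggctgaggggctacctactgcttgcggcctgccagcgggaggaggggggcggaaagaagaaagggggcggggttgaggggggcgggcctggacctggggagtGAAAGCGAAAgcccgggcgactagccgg
PSMA8: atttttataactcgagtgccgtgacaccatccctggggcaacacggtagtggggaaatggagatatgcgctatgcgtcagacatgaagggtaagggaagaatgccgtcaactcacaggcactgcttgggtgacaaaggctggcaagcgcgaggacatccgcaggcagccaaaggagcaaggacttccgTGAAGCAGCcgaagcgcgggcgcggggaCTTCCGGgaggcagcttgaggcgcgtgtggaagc
PSMB3: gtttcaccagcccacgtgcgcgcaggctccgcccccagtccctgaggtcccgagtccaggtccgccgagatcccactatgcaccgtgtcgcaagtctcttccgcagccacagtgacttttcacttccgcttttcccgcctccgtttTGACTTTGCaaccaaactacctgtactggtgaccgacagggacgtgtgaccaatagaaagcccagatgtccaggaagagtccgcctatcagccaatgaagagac
PSMB9: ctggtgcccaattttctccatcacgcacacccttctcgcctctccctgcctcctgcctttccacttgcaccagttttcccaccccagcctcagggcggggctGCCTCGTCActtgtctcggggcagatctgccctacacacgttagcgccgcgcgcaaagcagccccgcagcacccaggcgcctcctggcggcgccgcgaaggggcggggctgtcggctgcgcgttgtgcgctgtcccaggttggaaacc

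Among these, positions are counted from the annotated start, which is 0. PSMD12 held an antioxidant core at -165 to -157 and an ETS core at -8 to -2, and PSMC6 an ETS core at -107 to -101. PSMA5 held 4 matches to the loose antioxidant pattern in this stretch, none of them with a C after TGA. The nearest, at -85 to -77, overlaps a CCAAT box at -83 to -79. PSMB10 and PSME2 shared the interferon-type sequence GAAAGCGAAA, at -21 to -12 and -28 to -19. PSMB3 and PSMB9, without a peak, each held an antioxidant core, at -104 to -96 and -148 to -140.

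Over the 42 members with a promoter sequence (250 bases before to 50 after the start), the ETS core was found in 15, 35.7%, against 16.5% of the 15843 protein-coding genes with a sequence, any listed start counting. Both strands were searched, and a match is a description of the sequence, not of binding. It was found in 13 of 32 members with a peak in both cultures, 2 of 6 with one in ERG cells alone and 0 of 4 with none. For all genes of these classes the shares were 26.5%, 25.4% and 6.25%, so the core was also rarer at starts without a peak among all genes. At shared end peaks the median ERG-to-vector ratio of summit fragments was 1.99 in 10 members with the core and 1.95 in 18 without it. For all genes it was 2.17 and 2.15. Members with and without an ETS core therefore had nearly the same ratio. The loose antioxidant pattern TGANNNNGC was found in 28 of 42 members, 66.7%, against 49.6% of all genes, including 4 of the 4 without a peak. The interferon-type element was found in 7 members, 16.7% against 4.16%, namely PSMA4, PSMB4, PSMB8, PSMB10, PSME1, PSME2 and PSMG4. The NRF1 site (GCGCA and GCGC separated by any 1 base) was found in 5 members (11.9% against 9.67%). It is the site of nuclear respiratory factor 1, not of NFE2L1. The CCAAT box CCAAT was found in 20 members (47.6% against 42.1%), the GC box GGGCGG in 29 (69.0% against 64.3%) and the TATA box TATAAA in 5 (11.9% against 12.4%). The GC box can overlap an antioxidant or NRF1 match, and each motif was counted on its own.

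The alpha ring was acetylated at all 7 constitutive genes in ERG cells and at 5 in vector cells. PSMA7 had the strongest end peak of the ring, with 166 fragments in ERG cells and 86 in vector cells, and ranked 299th and 324th by deposited score in its list. A second ERG-cell peak near PSMA7, with 51 fragments, was narrow (306 bp) and stood on a background of 21.7 fragments. PSMA3 had 97 and 50 fragments, and PSMA4 63 and 26. The end peak of PSMA1 (75 and 28 fragments) lay near the end of PDE3B, far from the annotated start of PSMA1 at 14520386 on chromosome 11, where a separate peak was found in both cultures with 69 and 22 fragments. PSMA2 and PSMA5 had an end peak in ERG cells alone, with 23 and 43 fragments. The peak of PSMA2 lay at 42931363 to 42932142 on chromosome 7, beside the start of the mitochondrial ribosomal protein gene MRPL32, so it cannot be assigned to 1 of the genes.

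The beta ring had a median ERG-to-vector ratio of fragments of 1.47 over 5 genes (quartiles 1.27 to 1.64), against 1.99 over 16 genes of the 19S particle (1.81 to 2.07). It was 2.18 over 4 genes of the alpha ring and 2.15 over all genes with such a pair (quartiles 1.81 to 2.56). PSMB5 encodes the chymotrypsin-like site, the main target of proteasome inhibitor drugs, and had 50 fragments in ERG cells and 43 in vector cells. PSMB7, the trypsin-like site, had 28 and 22, and PSMB1, a non-catalytic subunit, 63 and 43. After division by the depth ratio these gave ratios of 0.81 (0.52 to 1.24), 0.88 (0.49 to 1.62) and 1.01 (0.68 to 1.53), so that the intervals of all 3 included 1. Among the 32 shared members of all roles, such intervals lay above 1 at 9 and below 1 at 0. PSMB2 (64 and 39) and PSMB4 (52 and 29) were also acetylated in both cultures. PSMB6, the caspase-like site, had a peak in ERG cells alone, with 17 fragments at 4795698 to 4796557 on chromosome 17. This was the fewest fragments of any member with an ERG-cell end peak. PSMB3 was the single 1 of the 31 constitutive 26S subunits among the members without a peak at an end or a start in either culture. The nearest peak to its annotated start was an ERG-cell peak 3.22 kb away with 15 fragments, and in vector cells the nearest lay 47.7 kb away. Peak lists alone do not show how many reads could be placed at PSMB3.

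The 19S particle was acetylated throughout in ERG cells. All 17 of its subunit genes among the members had an end peak in ERG cells and 16 in vector cells, the exception being PSMC2. Among the ATPases, PSMC3 had 123 fragments in ERG cells and 41 in vector cells, PSMC5 76 and 30, and PSMC1 62 and 31. PSMC4 (55 and 28) and PSMC6 (45 and 26) were lower in both. The PSMC2 peak, with 48 fragments on a background of 13.7, was found in ERG cells alone and lay near the end of PMPCB. All 11 non-ATPase subunits among the members had a peak in both cultures. The strongest of these was at PSMD1, the large scaffold subunit, with 127 and 70 fragments. PSMD12, PSMD8 and PSMD7 followed in ERG cells with 98, 90 and 81 fragments, against 48, 48 and 49 in vector cells. PSMD14, the subunit that removes ubiquitin chains, had 52 and 22, and PSMD4, a ubiquitin receptor, 54 and 27. PSMD2, the second large scaffold subunit, was nearly level at 41 and 39 fragments, the lowest ratio of all shared members.

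Assembly factors were acetylated in both cultures at 6 of 7 genes, starts included. PSMG1, an alpha-ring chaperone, had the strongest end peak of all members, at 39182472 to 39184265 on chromosome 21 in ERG cells (205 fragments) and at 39182681 to 39184137 in vector cells (111 fragments). It ranked 222nd of 19671 and 103rd of 9161 by score, and lay beside the end of BRWD1. The local background there was 30.7 fragments in ERG cells and 12.8 in vector cells, against medians of 10.0 and 5.40 over the 32 shared members. In ERG cells alone, 3 further peaks lay around the other end of PSMG1, between 39173438 and 39176460, with 46 to 61 fragments on backgrounds of 18.6 to 20.2 and folds of 2.30 to 3.17. They were thus low peaks within a stretch of raised background. PSMD10 (gankyrin), a chaperone of the ATPases, had 32 fragments in ERG cells and 10 in vector cells, the fewest of any member with a vector-cell end peak. The other ATPase chaperones, PSMD5 and PSMD9, had 69 and 28 and 75 and 41 fragments. PSMG3, which pairs with PSMG4, had a peak in ERG cells alone, with 27 fragments.

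The activators were acetylated in both cultures except PSME2. PSME4, which encodes the nuclear activator PA200, had 123 and 56 fragments, PSME3 (the nuclear PA28 gamma) 77 and 42, and PSME1 51 and 23. PSME2, the partner of PSME1, had in ERG cells a narrow peak of 295 bp at 24146302 to 24146596 on chromosome 14, with 33 fragments on a background of 12.2. This was the lowest in rank of the ERG-cell end peaks of members, 16634th of 19671. RNF31 has an end within 1 kb of it.

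Of the 5 immune or tissue-restricted subunits, 0 had a peak at an end or a start in vector cells and 2 had one in ERG cells. Over all protein-coding genes 32.2% had such a peak in both cultures, 16.1% in ERG cells alone and 51.4% in neither, so that the 3 of 5 without a peak were close to the share of all genes. PSMB10, which replaces PSMB7 in the immunoproteasome, had 37 fragments at 67935946 to 67936850 on chromosome 16, directly downstream of its start. The nearest vector-cell peak lay 43.1 kb from that start. PSMA8 had 18 fragments at 26133089 to 26134320 on chromosome 18. PSMB8 and PSMB9, neighbours in the histocompatibility region of chromosome 6, had no peak within 114 kb of their annotated starts in either culture. That region has alternative copies in the genome build, and the lists held 207 ERG-cell and 28 vector-cell peaks on alternative sequences of chromosome 6. Their part in the missing peaks was not tested. PSMB11, the thymus subunit, also had no end or start peak. In either library the nearest peak to its start was the one at PSMB5, at least 7.01 kb away. Among genes that act with the immunoproteasome in antigen processing, B2M and ERAP1 had an end peak in both cultures, TAPBP, NLRC5 and IRF1 in ERG cells alone, and TAP1, TAP2 and ERAP2 in neither. The peptide transporter genes TAP1 and TAP2, which lie beside PSMB8 and PSMB9, were thus also without an end peak.

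**Figure D2:**
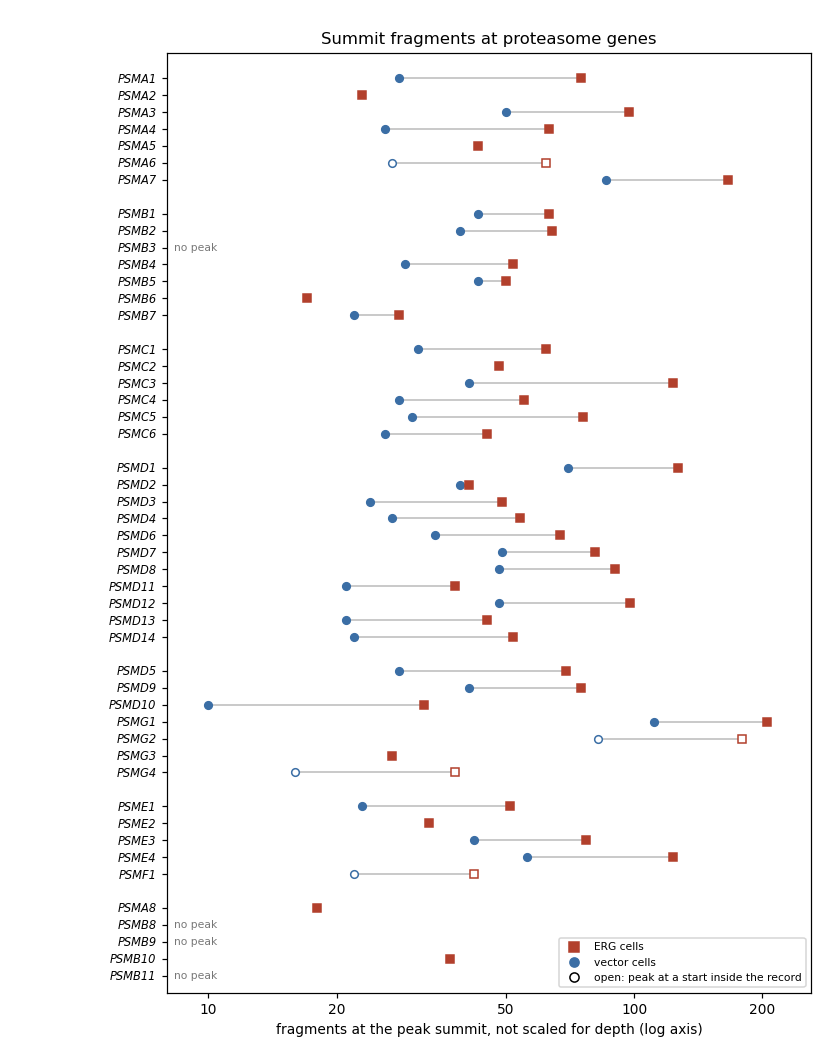
Fragments at the summit of the peak at each proteasome gene in ERG cells (squares) and vector cells (circles), not scaled for depth, on a log axis and ordered by role. Open symbols are peaks at a start inside the gene record, a gene with 1 symbol has a peak in ERG cells alone, and PSMB3, PSMB8, PSMB9 and PSMB11 have none. PSMG1, PSMG2 and PSMA7 lie farthest to the right in both cultures.

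Before scaling for depth, the 32 members with shared end peaks all had more fragments in ERG cells, from 1.05 times at PSMD2 to 3.20 times at PSMD10, with a median of 1.95. Summed over the members this was 2393 against 1236 fragments, a ratio of 1.94 (exact conditional 95% interval 1.81 to 2.08). After division by the depth ratio of 1.44 the median was 1.35, and PSMB5, PSMB7 and PSMD2 lay below 1. Over all 6021 protein-coding genes with such a pair the median ratio was 2.15 before and 1.49 after scaling, so that the members' median lay at 0.91 when the ratio of all shared end peaks was used as the scale, below 1 instead of above it. Of the 32 members, 9 had a ratio above the median of all genes. The depth-scaled interval lay above 1 for 9 members, against 44.1% of all genes, and below 1 for 0, against 0.282%. These 9 were PSMA1, PSMA4, PSMA7, PSMC3, PSMC5, PSMD5, PSMD10, PSMG1 and PSME4. The largest was PSMD10 at 2.22 (1.06 to 5.05), with a wide interval at 10 vector-cell fragments, followed by PSMC3 at 2.08 (1.45 to 3.04). With the ratio of all shared end peaks as the scale, the intervals of all 9 included 1, and those of PSMB5, at 0.54 (0.35 to 0.83), and PSMD2, at 0.49 (0.31 to 0.78), lay below it. The deposited fold, which takes the local background into account, was higher in ERG cells at 23 of 32 members, with a median ratio of 1.14, and at 73.6% of all genes, also with a median of 1.14.

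**Figure D3:**
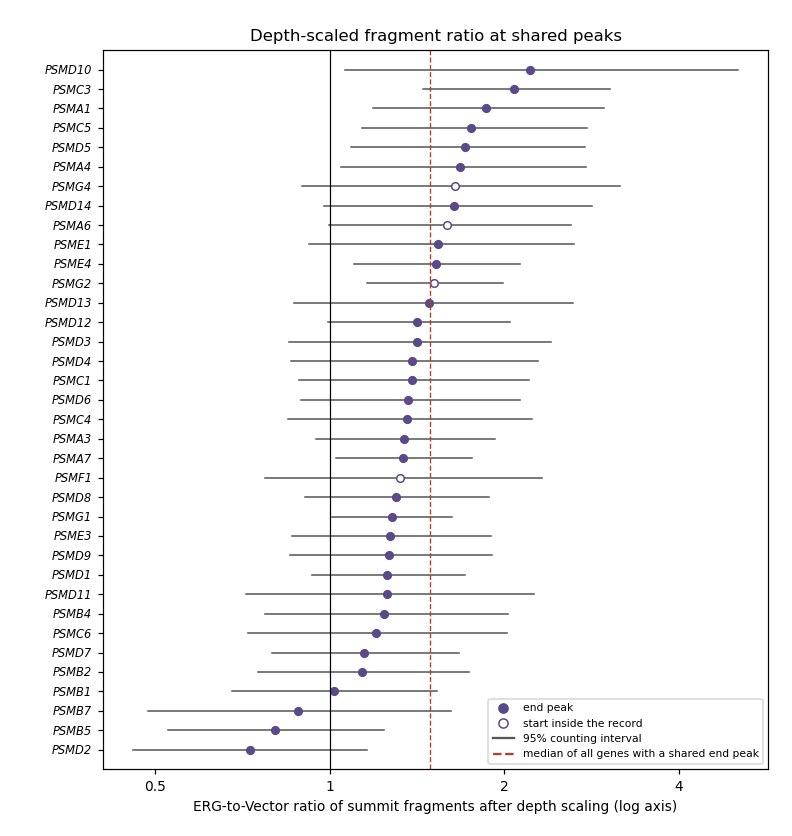
ERG-to-Vector ratio of summit fragments after depth scaling for 32 shared end peaks and 4 start peaks inside the gene record (open), with 95% counting intervals, on a log axis. The solid line is 1 and the dashed line the median of all genes with a shared end peak, 1.49; PSMD2, PSMB5 and PSMB7 lie to the left of the solid line.

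The ERG-cell end peaks of the 8 genes without a vector-cell peak had 17 to 48 fragments, against 28 to 205 in the 32 shared members. Divided by the depth ratio, with no new peak calling, all 8 still passed the lowest −log10 p-value of the vector-cell list, 3.98. Divided by the median ratio of shared end peaks, 2.15, PSME2 fell below it at 3.57 and the other 7 remained above. PSMA5 and PSMB10 would have 20 and 17 fragments on that scale, on backgrounds of 3.34 and 2.90. With the ERG-cell list limited to the 9161 peaks of highest score, which shortens it to the length of the vector-cell list, PSMA5 and PSMB10 alone kept an end peak among the 8.

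Acetylation at proteasome genes lay mainly on the gene side of the start. Measured along the gene from the annotated start nearest the summit, the summit lay downstream at 34 of 38 members in ERG cells and at 27 of 32 in vector cells, with medians of 198 and 224 bp. The corresponding shares were 89.5% (75.2 to 97.1) and 84.4% (67.2 to 94.7), and over all genes with a start peak they were 68.9% and 72.8%. PSMA4, PSMC5, PSMD1 and PSMG2 had the summit before the start in both cultures, and PSMD13 in vector cells alone. PSMA4 has 3 annotated starts, and its summits lay downstream of the other two, by 216 and 177 bp in ERG cells and 270 and 231 bp in vector cells. With the most upstream start of each gene the counts were 35 of 38 and 28 of 32, and with the most downstream start 33 and 26. PSMC5, PSMD13 and PSMG2 have an end of another gene nearby (FTSJ3, SIRT3 and CEP76). In vector cells 12 of 32 peaks, 37.5% (21.1 to 56.3), reached upstream of the start, whereas in ERG cells 25 of the same 32 genes had a peak that did so, 78.1% (60.0 to 90.7). For all 5251 genes with start peaks in both cultures these shares were 52.8% and 80.8%. From the most upstream start of each gene the members' counts were 11 and 23 of 32, and from the most downstream start 12 and 25. Of the 25 such members with 1 annotated start, 8 and 19 had a peak that reached upstream.

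The ERG-cell peak was the wider one at 31 of these 32 members (94.7% of all genes), with median widths of 1025 against 545 bp. Over all genes with start peaks in both cultures the median widths were 1028 and 573 bp. The upstream edge moved out by a median of 128 bp and the downstream edge by 212 bp, against 93 and 154 bp over all genes. The upstream extension was the larger one at 16 of 32 (46.3% of all genes). At PSMC6 the upstream edge moved from 48 bp after the start in vector cells to 600 bp before it in ERG cells, and at PSMB4 from 28 bp after to 576 bp before. The summit itself moved by at most 150 bp at 27 of 32 members (72.9% of all genes), with a median of 52.5 bp (68 bp over all genes). A peak's width depends on depth, which by the lowest background was 1.44 times higher in ERG cells. The part of depth in these widths was not tested.

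**Figure D4:**
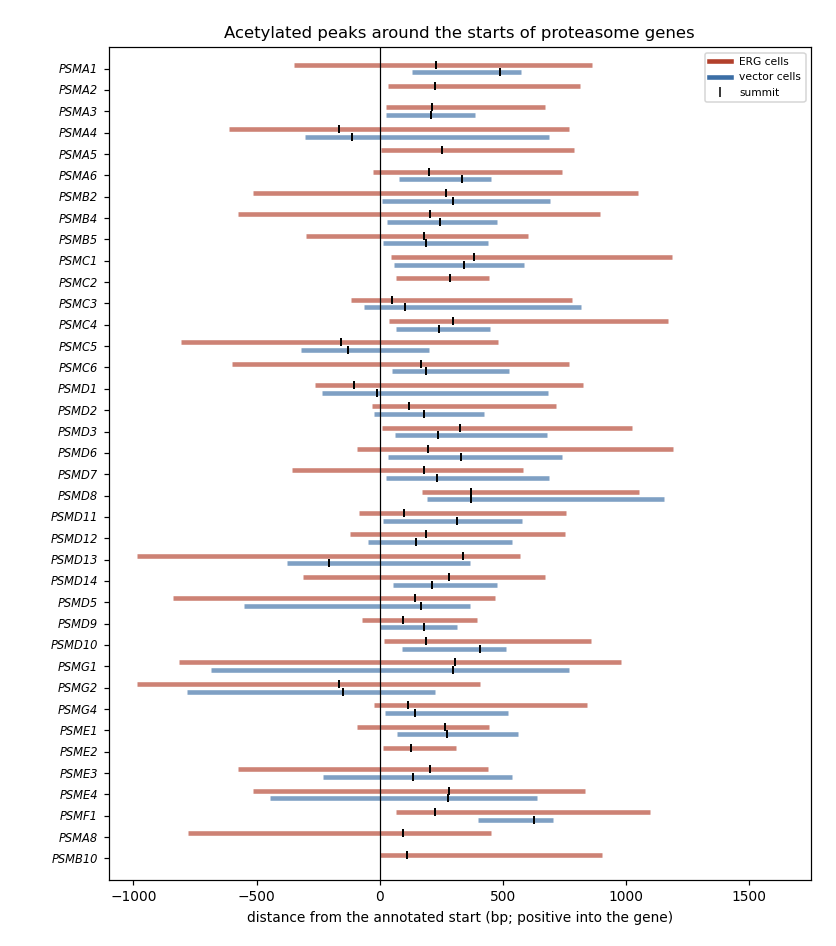
Extent of the strongest H3K27ac peak at the start of 38 proteasome genes, in bp from the annotated start (positive into the gene), in ERG cells (red) and vector cells (blue), with black ticks at the summits. Most summits lie to the right of the start, and 25 of the 32 genes with both peaks have an ERG-cell peak that crosses to the left of it against 12 vector-cell peaks.

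Away from ends and starts, ERG cells had 3 peaks within member genes, 1 each inside PSMB7 (35 fragments at 124388288 to 124388941 on chromosome 9), PSMD2 (27 fragments) and PSME4 (35 fragments), and vector cells had 0. The share of all genes with such inner peaks was not counted, and the ERG-cell list is the longer one (19671 against 9161 peaks). No difference particular to the members can be read from these counts. An end of another protein-coding gene lay within 1 kb of the end peak at 10 of the 40 members with one, at PSMA1 (PDE3B), PSMA2 (MRPL32), PSMA7 (SS18L1), PSMC2 (PMPCB), PSMC5 (FTSJ3), PSMD13 (SIRT3), PSMD9 (HPD), PSMG1 (BRWD1), PSME2 (RNF31) and PSME4 (ACYP2). At these genes, and at the PSMG2 start (CEP76), a peak cannot be assigned to 1 of the neighbours. Among the members' promoters the median GC content was 64.0% where both cultures had a peak, 59.3% where ERG cells alone had one and 59.7% where neither had. Over all genes of these classes it was 67.3%, 65.3% and 60.7%.

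The other genes of the ubiquitin-proteasome system were mostly acetylated in both cultures. Of 30 such genes, 25 had an end peak in both cultures, 3 in ERG cells alone (PAAF1, NGLY1 and UBQLN2) and 2 in neither. Over all protein-coding genes these shares were 30.2%, 15.6% and 53.8%. NGLY1 and UBA1 had peaks in both cultures at an annotated start. The 19S subunit genes outside the PSM nomenclature, SEM1 and ADRM1, had 54 and 26 and 76 and 30 fragments, and POMP, the maturation factor of the core, 42 and 25. NFE2L1 had 87 fragments in ERG cells and 28 in vector cells, and NFE2L2, its relative, 158 and 68. DDI2, the protease that activates NFE2L1, had 39 in each library. The polyubiquitin gene UBB had 75 and 16 fragments. The median ratio over the 25 shared genes was 2.24, against 1.95 in the 32 proteasome genes and 2.15 in all genes.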

How the data were processed

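H3K27ac was assayed by chromatin immunoprecipitation and sequencing in 1 library of ERG cells and 1 of vector cells. Per the labels' protocols, cells were fixed with 1% formaldehyde, chromatin was cut with micrococcal nuclease, and 10 µg was used per pull-down. Per the submitters' processing notes the tools were Bowtie2, deepTools and MACS2 and the build hg38, and the sources used here do not say whether an input or a duplicate filter was used. The authors deposited 1 peak list per library, with a score, a fold (a ratio of summit to local background), a −log10 p-value, a −log10 q-value and a summit position for each peak.

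Summit fragments and background were solved from the deposited fold and −log10 p-value (fold as fragments plus 1 over background plus 1, Poisson tail). They came out whole for 99.9% of peaks in both lists, at a relative error below 0.0001. The lowest background of each list served as its depth. Python 3.11.15, scipy 1.17.1 and pandas 2.3.3 were used. The solving step was run again on fold and p-values recomputed from peaks already solved, which cannot check the assumed formula. The ratio interval was tested on simulated counts.

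Genes came from the RefSeq table of GRCh38.p14, starts and promoter sequences from the RefSeq promoter table. Shared peaks overlap by at least 1 bp, and the pair with most fragments was used. Intervals are exact (Clopper-Pearson, or conditional for ratios). No test was made with 1 library a group. Every member was counted. The rule for named members took those without a shared peak, the catalytic, immune, tissue, activator, inhibitor and assembly genes, and the 5 highest and 5 lowest by fragments or ratio; others are given as examples of their group. The members, lists and motifs were chosen with earlier results of these data known. Some genes of the lists are not reported here. The alternatives were other windows, score cuts, a shortened ERG-cell list, division of its peaks by the depth ratio, stricter overlap, other scalings and annotated starts. Counting ends and starts together and other choices among a gene's starts were added after seeing the data.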

Additional observations from a re-analysis of the deposited data

How the results depend on the processing

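With 1 library a group, no library could be left out, and depth and culture cannot be told apart from ERG. The 32 members with an end peak in both cultures stayed within 1.5 times that number under every alternative run. The 8 with none became 13 with the upper 50% of each list by score and 14 with the shortened ERG-cell list, under which the 8 of ERG cells alone became 2. Over all genes the share with none went from 53.8% to 65.1% and 63.3% under these settings. The share of all genes in ERG cells alone went from 15.6% to 6.15% with the shortened list. The 8 members with none became 4 with annotated starts (42 members) and also 4 with ends and starts together. A 2.5 kb window and an overlap of 50% of the shorter peak changed no member's class, and a 0.5 kb window moved PSMD6 to ERG cells alone. Dividing the fragments and background of called ERG-cell peaks by the depth ratio also changed no member's class. Over all genes it left 15.1% in ERG cells alone, against 15.6%. Reads were not thinned and peaks not called again, so this cannot show which peaks a shallower library would give. The median depth-scaled fragment ratio of 1.35 became 0.907 with the ratio of all shared end peaks as the scale and 1.14 with the deposited fold. The median covered length per member, 867 bp in ERG cells and 452.5 bp in vector cells, became 2281.5 and 909 bp with a 50 kb window. Other choices among several annotated starts, added after seeing the data, kept the members' shares with the summit downstream at 86.8% to 96.8% in ERG cells and 81.2% to 92% in vector cells. The counts of the other ubiquitin-proteasome genes stayed within 1.5 times under both alternatives run. No paired analysis was possible because each group has 1 library.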
